A study of Mus musculus with 16 samples.

Results

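The genes described here are Nfe2l2 and 7 genes whose products restrain it, pair with it or compete with it, namely Keap1, Cul3, Nfe2l1, Mafg, Mafk, Bach1 and Sqstm1. They were chosen by gene name, and all 8 of 8 names were found among the 33730 genes of the deposited count table, each on 1 identifier. RNA was sequenced from mouse liver in 16 libraries, 4 in each of 4 groups, and the series design gives 4 animals per group. All mice were C57BL/6 by their labels, and the genotypes were Nrf2-/- (KO) and wild type (WT). The KO CDDO-Me and WT CDDO-Me mice received 3 mg/kg CDDO-Me (bardoxolone methyl, a synthetic triterpenoid) dissolved in DMSO, injected into the abdomen 24 h and 1 h before partial hepatectomy. The WT DMSO mice received the vehicle at 1 µL/g on the same schedule, and the KO untreated mice are labelled untreated. Every library is labelled as liver of day 0 of the operation. The series design places the resections 24 h after treatment. In the KO pair, drug and vehicle cannot be told apart, and between KO untreated and WT DMSO, genotype and vehicle cannot be told apart. The labels give neither the age and sex of the mice nor the part of Nfe2l2 that was deleted.

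The transcription factor NRF2 is encoded by Nfe2l2 and turns on antioxidant and detoxification genes, in the liver above all those that make and use glutathione. KEAP1 holds NRF2 in the cytoplasm and presents it to the CUL3 ubiquitin ligase for destruction by the proteasome. Electrophiles such as CDDO-Me modify KEAP1, so that NRF2 protein escapes and enters the nucleus, a step at the level of protein that messenger RNA does not report. p62, the product of Sqstm1, binds KEAP1 and delivers it to autophagy. In the nucleus NRF2 pairs with a small MAF protein, such as MAFG or MAFK, on antioxidant response elements, where BACH1 competes for the same partners and sites as a repressor sensitive to heme. NRF1, the product of Nfe2l1, is a relative of NRF2 that is held in the endoplasmic reticulum and restores proteasome genes.

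The antioxidant response element has the core TGACNNNGC, in which N is any base. Both strands of the 300-base promoter windows of RefSeq (GRCm38.p6, 250 bases before to 50 after a gene's start) were searched for it, with 1 motif searched and so no overlap with another. All 8 genes had a window and 3 of 8 held a match, against 13.99% of 27025 genes and 12.39% of 32851 windows. The matches are shown because they lie at Nfe2l2, Mafg and Mafk, an activator and its partners, with Gclm and Txnrd1 for comparison. Of the 6 NRF2 output genes described last, 4 had a window and 3 of these (Gclm, Txnrd1 and Srxn1) held a match, while Nqo1 had a window without one. Gclc and Hmox1 were not in the table of windows. Each line gives 29 bases in the gene's own direction with the core in capitals, which reads on the opposite strand in all but the Nfe2l2 line.
Nfe2l2: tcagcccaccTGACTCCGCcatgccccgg
Mafg: ctctgcaggaGCACGGTCAacccggcgag
Mafk: gatcccggaaGCGGTGTCAgtactgggga
Gclm: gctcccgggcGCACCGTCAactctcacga
Txnrd1: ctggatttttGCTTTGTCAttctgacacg
They lie at chr2:75704885-75704913 (minus strand), chr11:120633751-120633779 (minus strand), chr5:139791513-139791541 (plus strand), chr3:122245413-122245441 (plus strand) and chr10:82859104-82859132 (plus strand). The Nfe2l2 and Mafg stretches also fall in an exon of a gene on the other strand, E030042O20Rik and Gm17586, and the Mafk stretch falls in an exon of Mafk itself. A match is a run of letters and not a measured binding site.

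Libraries held 12002317 to 99284626 counts, and the 8 genes had between 141 counts (Mafk) and 53000 counts (Sqstm1) in a library. Levels are given as CPM, counts scaled by the library sizes of the trimmed mean method, with mean ± SD over n = 4. Reads on sense-intronic and unsettled loci made up 0.673% to 0.967% of counts in WT DMSO 1 and 2 and KO untreated 1 and 2, called intron-rich here, and 0.186% to 0.407% in the other libraries. The ribosomal RNA share was 0.173% to 0.634% for WT CDDO-Me 2 to 4 together with WT DMSO 1 to 3. It was 0.00108% to 0.0368% in the rest, namely WT CDDO-Me 1, WT DMSO 4 and each library labelled KO. WT DMSO 4 had 9.14 CPM of S100a8 and 18.9 CPM of S100a9, both neutrophil markers, against at most 0.736 CPM of either in the other WT DMSO libraries. Mitochondrially encoded genes took 14.7% of counts in WT CDDO-Me 4 and 10.02% in WT DMSO 3. Their share was 3.85% to 7.497% in the remaining WT libraries and 2.57% to 3.74% across KO, so the genotypes did not overlap. Between KO and WT, genotype and this library trait cannot be told apart. The part of either share in the values of the 8 genes was not tested. The 6 hepatocyte markers (Alb, Apoa1, Ttr, Serpina1a, Hnf4a and Cps1) were read in every library, and none was called in any comparison, with 0 to 2 of 6 at an unadjusted p under 0.05. Calls are genes with p under 0.05 in edgeR's quasi-likelihood test after Benjamini-Hochberg adjustment across 16206 genes, and all 8 genes passed the filter on low counts.

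Nfe2l2 (ENSMUSG00000015839, GRCm38 chromosome 2, 75675513 to 75704641, minus strand) checks the genotype labels. It had 19.8, 15.7, 21.0 and 19.0 CPM in KO CDDO-Me 1 to 4, against 39.5, 36.6, 45.5 and 38.0 CPM in WT CDDO-Me 1 to 4. It had 51.7, 35.5, 19.9 and 21.3 CPM in KO untreated 1 to 4, against 42.8, 66.2, 55.1 and 74.9 CPM in WT DMSO 1 to 4. The drug-treated genotypes did not overlap, whereas the intron-rich library labelled KO untreated 1 lay inside the range of WT DMSO. Nqo1, the quinone reductase most used as a readout of NRF2, had 0.508 CPM in that library and 0.434 to 1.19 CPM across KO untreated, against 3.21 to 4.22 CPM across WT DMSO. The principal transcript of Nfe2l2 has 5 exons, the last with 67.6% of its bases, so reads outside a deleted part would still be counted. Nfe2l2 reads were present in every library labelled KO, and the lowest of all 16 libraries had 329 counts. In bulk liver, fewer cells of a type and less RNA per cell cannot be told apart.

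Nfe2l2 fell to 18.9 ± 2.25 CPM in KO CDDO-Me, against 39.9 ± 3.93 CPM in WT CDDO-Me (log2 fold change −1.08 ± 0.26 (SE), edgeR adjusted p = 0.0283). The call was kept in 8 of 16 edgeR fits with a single library left out (highest adjusted p = 0.102), and lost without any 1 of the 8 libraries compared (−1.13 to −1.00, adjusted p from 0.0524 to 0.102). It was not kept by limma on log2(FPKM + 0.1), where libraries are scaled to their totals (−0.94, adjusted p = 0.104). Between KO untreated (32.1 ± 14.8 CPM) and WT DMSO (59.7 ± 13.9 CPM) the log2 difference was −0.90 ± 0.25 (edgeR adjusted p = 0.0969). It was −1.22 (edgeR adjusted p = 0.0155) without KO untreated 1 and −1.69 (edgeR adjusted p = 0.00174) without the 4 intron-rich libraries. The latter value compares only KO untreated 3 and 4 with WT DMSO 3 and 4. KO untreated 1 was the 1 library of 16 whose omission made a call, and in the other 15 such fits the adjusted p was up to 0.225. The estimate was −0.77 (edgeR adjusted p = 0.190) without WT DMSO 4, −0.91 (edgeR adjusted p = 0.446) with only these 2 groups fitted and −0.79 by limma on log2(FPKM + 0.1) (adjusted p = 0.210). Within a genotype the estimate was below 0 with the drug, at −0.58 ± 0.25 in WT CDDO-Me vs WT DMSO (edgeR adjusted p = 0.297) and −0.76 ± 0.25 in KO CDDO-Me vs KO untreated (edgeR adjusted p = 0.229). Both missed the threshold, and in both pairs the CPM ranges met. In the deposited FPKM the WT ranges stayed apart (7.45 to 11.0 in WT CDDO-Me, 12.8 to 20.9 in WT DMSO).

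**Figure D1:**
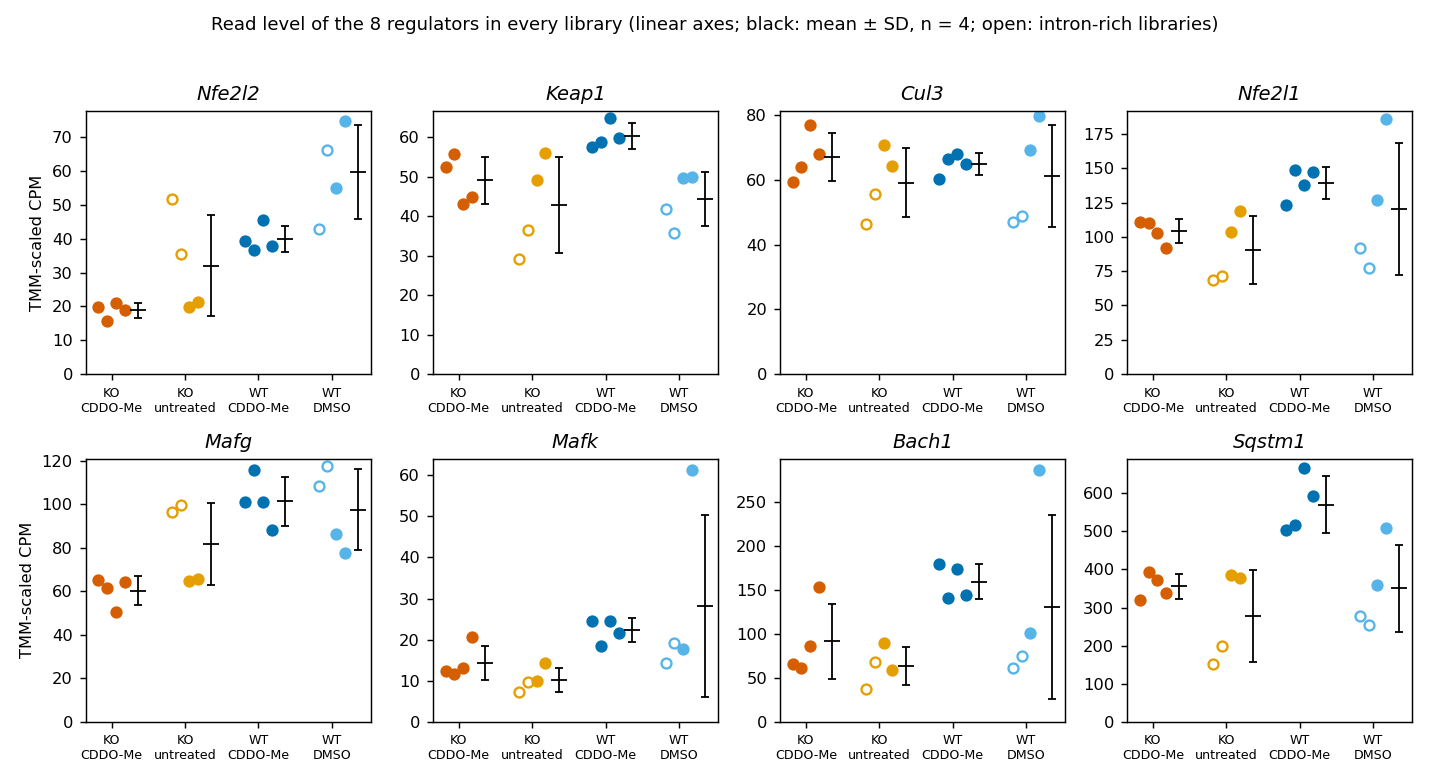
CPM of the 8 genes in each of the 16 libraries (linear axes from 0), with black bars for mean ± SD and open circles for the intron-rich libraries. Nfe2l2 in KO CDDO-Me sits between 15.7 and 21.0 CPM, below every WT library, and WT DMSO 4 stands far above its group for Mafk and Bach1.

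Keap1 (chromosome 9, 21229730 to 21239361, minus strand) encodes the sensor that binds NRF2. It had 57.5, 58.7, 64.9 and 59.9 CPM in WT CDDO-Me, against 41.8, 35.7, 49.7 and 49.8 CPM in WT DMSO. Every treated WT library was above every vehicle library in CPM, while the deposited FPKM overlapped (9.50 to 12.97 in WT CDDO-Me, 8.58 to 10.44 in WT DMSO). The means were 60.3 ± 3.23 CPM in WT CDDO-Me and 44.3 ± 6.84 CPM in WT DMSO (log2 fold change 0.44 ± 0.18), which did not pass the test (edgeR adjusted p = 0.276). It had 52.6, 55.7, 43.1 and 44.8 CPM in KO CDDO-Me, against 29.2, 36.4, 49.2 and 56.1 CPM in KO untreated, where the ranges overlapped (0.20 ± 0.18, edgeR adjusted p = 0.555). The lowest KO untreated values were those of the intron-rich libraries, and without the 4 intron-rich libraries the estimate in the KO pair was −0.08. All KO CDDO-Me libraries were below all WT CDDO-Me libraries for Keap1 in CPM, though not in the deposited FPKM. The difference was −0.30 ± 0.18 on the log2 scale (edgeR adjusted p = 0.442). Gm16754 overlaps Keap1 on the other strand, and whether the counting used strand is not given in the sources used here.

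Cul3 (chromosome 1, 80264923 to 80340480, minus strand) encodes the scaffold of the ligase that KEAP1 serves. It averaged 67.1 ± 7.49 CPM in KO CDDO-Me, 59.2 ± 10.5 CPM in KO untreated, 64.9 ± 3.35 CPM in WT CDDO-Me and 61.2 ± 15.9 CPM in WT DMSO. All 4 groups overlapped. The log2 fold changes lay between −0.05 in KO untreated vs WT DMSO and 0.18 in KO CDDO-Me vs KO untreated (edgeR adjusted p from 0.579 to 0.959). The 95% interval of the WT response to the drug ran from −0.29 to 0.45. By limma on FPKM, where libraries are scaled to their totals, 3 of the 4 signs turned, all but that of KO CDDO-Me vs WT CDDO-Me.

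Sqstm1 (chromosome 11, 50199366 to 50210827, minus strand) encodes p62 and is itself a known NRF2 target. It had 505, 518, 665 and 592 CPM in WT CDDO-Me, against 279, 255, 358 and 508 CPM in WT DMSO. WT DMSO 4 alone among the vehicle libraries reached the treated range in CPM. In the deposited FPKM the ranges stayed apart (131 to 168 in WT CDDO-Me, 91.1 to 122 in WT DMSO). The log2 fold change of 0.70 ± 0.28 was the largest of the 8 genes in this pair, and it was not called (edgeR adjusted p = 0.269; 0.94 and 0.101 at its strongest when 1 library was left out). Sqstm1 had 319, 393, 373 and 339 CPM in KO CDDO-Me, against 150.4, 198, 386 and 376 CPM in KO untreated. The KO ranges overlapped, with the intron-rich libraries at the low end (0.36 ± 0.28, edgeR adjusted p = 0.493). All 4 KO CDDO-Me libraries lay below all 4 WT CDDO-Me libraries, at −0.68 ± 0.28 on the log2 scale (edgeR adjusted p = 0.219). That difference was called when only these 2 groups were fitted (−0.66, edgeR adjusted p = 0.00964) and without the 4 intron-rich libraries (−0.66, edgeR adjusted p = 0.0158). DESeq2 (adjusted p = 0.171) and limma on log2(FPKM + 0.1) (adjusted p = 0.0737) did not call it. Mrnip overlaps Sqstm1 on the other strand.

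Mafg (chromosome 11, 120625117 to 120633600, minus strand) encodes a small MAF partner of NRF2. It had 65.0, 61.3, 50.5 and 64.1 CPM in KO CDDO-Me, against 101, 116, 101 and 88.1 CPM in WT CDDO-Me. The 2 groups did not overlap in CPM, though they met in the deposited FPKM. Mafg fell to 60.2 ± 6.68 CPM in KO CDDO-Me, against 101 ± 11.3 CPM in WT CDDO-Me (log2 fold change −0.75 ± 0.18, edgeR adjusted p = 0.0280). It was called in 9 of 16 fits that left out 1 library and lost without any 1 of the 8 libraries compared other than WT CDDO-Me 4 (−0.79 to −0.68, edgeR adjusted p from 0.0509 to 0.0961). It was not called by limma on log2(FPKM + 0.1) (−0.62, adjusted p = 0.266). It had 96.3, 99.8, 64.9 and 65.8 CPM in KO untreated, against 108, 118, 86.4 and 77.6 CPM in WT DMSO. In both control groups the intron-rich libraries 1 and 2 were the higher pair. The estimates were −0.25 ± 0.18 for KO untreated vs WT DMSO (edgeR adjusted p = 0.596), −0.44 ± 0.18 for KO CDDO-Me vs KO untreated (0.270) and 0.06 ± 0.18 for WT CDDO-Me vs WT DMSO (0.884). The drug estimates of the 2 genotypes differed by 0.50 ± 0.25 (interaction, edgeR adjusted p = 0.617), the lowest adjusted p among the 8 genes. Sirt7 overlaps Mafg on the same strand.

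Mafk (chromosome 5, 139791513 to 139802653, plus strand) encodes another small MAF protein and had the lowest median FPKM of the 8. It had 12.3, 11.7, 13.1 and 20.6 CPM in KO CDDO-Me, against 24.6, 18.5, 24.5 and 21.6 CPM in WT CDDO-Me. It had 7.16, 9.65, 9.82 and 14.2 CPM in KO untreated, against 14.3, 19.2, 17.7 and 61.3 CPM in WT DMSO. Every KO untreated library was below every WT DMSO library, though the nearest values, 14.2 and 14.3 CPM, almost met. The log2 fold change of −1.47 ± 0.38 for KO untreated vs WT DMSO missed the threshold (edgeR adjusted p = 0.0718). DESeq2 called it (adjusted p = 0.00737), and limma on log2(FPKM + 0.1) (adjusted p = 0.0986) and edgeR on only these 2 groups (adjusted p = 0.347) did not. Same-numbered libraries of these 2 groups deviated together, though no label states a pairing. Mafk was lower in KO untreated in 4 of 4 such pairs, which any pairing gives when groups do not overlap. With the replicate number as a block it was called when all 16 libraries were fitted (−1.31, edgeR adjusted p = 0.0317), but not when only these 2 groups were (−1.27, edgeR adjusted p = 0.0927). It was −0.74 without WT DMSO 4 (edgeR adjusted p = 0.144) and −1.69 without WT DMSO 1 (edgeR adjusted p = 0.0327). The WT response to the drug was −0.34 ± 0.37 with all libraries (edgeR adjusted p = 0.642) and 0.39 without WT DMSO 4 (edgeR adjusted p = 0.300), so 1 library set its sign. Tmem184a overlaps Mafk on the other strand.

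Bach1 (chromosome 16, 87698945 to 87733346, plus strand) encodes the repressor that competes with NRF2. It had 179.6, 140.4, 174 and 144 CPM in WT CDDO-Me, against 60.8, 74.2, 101 and 286 CPM in WT DMSO. WT DMSO 4 was above all treated libraries and the other 3 vehicle libraries were below all of them. Bach1 had a log2 estimate of 0.29 ± 0.42 with the drug (edgeR adjusted p = 0.736), and 1.02 without WT DMSO 4 (edgeR adjusted p = 0.110). It had 66.1, 61.2, 86.0 and 153 CPM in KO CDDO-Me, against 37.4, 67.5, 89.7 and 58.6 CPM in KO untreated, where the ranges overlapped (0.53 ± 0.42, edgeR adjusted p = 0.496). Between genotypes the log2 fold changes were −0.80 ± 0.42 in KO CDDO-Me vs WT CDDO-Me (edgeR adjusted p = 0.3596) and −1.05 ± 0.42 in KO untreated vs WT DMSO (edgeR adjusted p = 0.260). The second was −0.31 without WT DMSO 4 (edgeR adjusted p = 0.723).

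Nfe2l1 (chromosome 11, 96817414 to 96829968, minus strand) encodes NRF1, and no annotated gene overlaps it or Bach1. It had 111, 110.0, 103 and 92.0 CPM in KO CDDO-Me, against 123, 149, 138 and 147 CPM in WT CDDO-Me. The groups did not overlap in CPM but did in the deposited FPKM. The log2 fold change of −0.42 ± 0.24 was not called (edgeR adjusted p = 0.399). It was called when only these 2 groups were fitted (edgeR adjusted p = 0.0273), a fit that called 2045 genes, against 534 in the main fit. It had 68.6, 71.2, 104 and 119 CPM in KO untreated, against 91.8, 77.4, 127 and 186 CPM in WT DMSO. The intron-rich libraries were the lower pair in each control group, and WT DMSO 4 was again the highest (−0.41 ± 0.24, edgeR adjusted p = 0.484). The responses to the drug were 0.20 ± 0.24 in KO (edgeR adjusted p = 0.648) and 0.21 ± 0.24 in WT (edgeR adjusted p = 0.657).

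**Figure D2:**
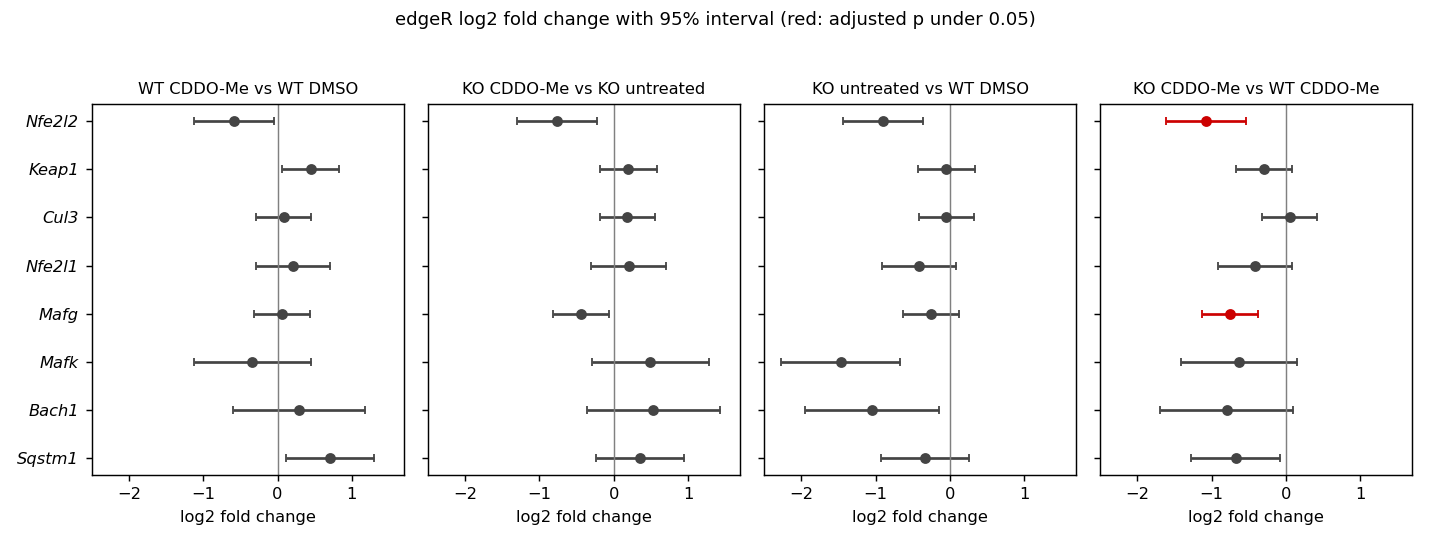
log2 fold change of each gene in the 4 pairwise comparisons, with points for the edgeR estimate, bars for its 95% interval and red for an adjusted p under 0.05. Only Nfe2l2 (−1.08) and Mafg (−0.75) are red, both in KO CDDO-Me vs WT CDDO-Me.

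Counted by comparison, 2 of the 8 genes were called in KO CDDO-Me vs WT CDDO-Me, both lower in KO, where 3.3% of all genes tested were called and 2.23% were called lower. Of the 8, 3 (Nfe2l2, Mafg and Sqstm1) had an unadjusted p under 0.05 there, against 17.1% of all genes. For 5 of 8 genes (Nfe2l2, Keap1, Nfe2l1, Mafg and Sqstm1) every KO CDDO-Me library was below every WT CDDO-Me library in CPM, against 9.82% of all genes tested. In the deposited FPKM, scaled to library totals, only Nfe2l2 and Sqstm1 of these stayed apart. There Keap1 (8.53 to 11.56 in KO CDDO-Me, 9.50 to 12.97 in WT CDDO-Me), Nfe2l1 (17.09 to 20.64, 20.15 to 26.59) and Mafg (8.34 to 11.70, 11.68 to 20.05) overlapped. Of the 8 estimates 1 was above 0, against 48.7% of all genes, and their median was −0.66, against −0.01 over all genes. Nfe2l2, the deleted gene, is among the genes counted as lower. In the same pair the 5 stellate cell markers summed to 176.7 to 291.9 CPM in KO CDDO-Me, against 321 to 373.5 CPM in WT CDDO-Me, with 0 of 5 called by edgeR and 3 of 5 at an unadjusted p under 0.05. The 6 Kupffer cell markers summed to 233.2 to 368.6 CPM in KO CDDO-Me, against 323.7 to 462.5 CPM in WT CDDO-Me, and 1 of 6 (Marco) was called lower. The markers differed in direction. Adgre1 (33.8 to 46.9 CPM in KO CDDO-Me, against 27.6 to 31.9 CPM in WT CDDO-Me) and Timd4 (5.504 to 9.94 CPM in KO CDDO-Me, against 3.79 to 7.44 CPM in WT CDDO-Me) had estimates above 0 that were not called (0.42 and 0.68, edgeR adjusted p = 0.266 and 0.169).

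Between KO untreated and WT DMSO, edgeR called 0 of 8 genes, against 1.38% of all genes, with 3 of 8 at an unadjusted p under 0.05, against 14.1%. DESeq2 called 2 of 8 there, Nfe2l2 and Mafk. No estimate of the 8 was above 0, against 50.5% of all genes, with a median of −0.37, against 0.00354 over all genes. Mafk was the 1 gene of 8 whose groups did not overlap, lower in KO untreated, against 3.04% of all genes. The library numbers end the sample titles, and the column headers number the libraries otherwise, so same-numbered pairs are only a matching by title. Within them, Nfe2l1, Mafg, Mafk and Bach1 were lower in KO untreated in 4 of 4. Nfe2l2 and Sqstm1 were lower in 3 of 4, and Keap1 and Cul3 in 2 of 4. The share of all genes lower in 4 of 4 was not computed, so these counts are only descriptions. The 6 Kupffer cell markers summed to 178.1 to 315.2 CPM in KO untreated, against 134.9 to 184.9 CPM in WT DMSO, with 1 of 6 (Adgre1) called higher and 4 of 6 at an unadjusted p under 0.05. The 5 stellate cell markers summed to 174.5 to 388 CPM in KO untreated, against 173.3 to 277.6 CPM in WT DMSO, with 0 of 5 called by edgeR and 2 of 5 at an unadjusted p under 0.05. The 5 neutrophil markers summed to 0.254 to 0.944 CPM in KO untreated, where Ly6g and Camp were at 0, against 0.971 to 29.3 CPM in WT DMSO, whose top was WT DMSO 4. Of these, the 2 tested (S100a8 and S100a9) were not called by edgeR, and both had an unadjusted p under 0.05.

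For CDDO-Me in WT liver, edgeR called 0 of 8 genes, against 0.728% of all genes, with 3 of 8 at an unadjusted p under 0.05 (Nfe2l2, Keap1 and Sqstm1), against 15.3%. DESeq2 and limma also called 0. Estimates above 0 numbered 6 of 8, against 48.4% of all genes, and the median was 0.15, against −0.02. By CPM Keap1 was the 1 gene of 8 whose groups did not overlap, higher in WT CDDO-Me, against 4.36% of all genes. In the deposited FPKM, scaled to library totals, Keap1 overlapped. There Nfe2l2 (7.45 to 11.0 in WT CDDO-Me, 12.8 to 20.9 in WT DMSO) and Sqstm1 (131 to 168, 91.1 to 122) stayed apart instead. In the same pair the 6 Kupffer cell markers summed to 323.7 to 462.5 CPM in WT CDDO-Me, against 134.9 to 184.9 CPM in WT DMSO, and 4 of 6 (Adgre1, Clec4f, Cd5l and Marco) were called higher. The 5 stellate cell markers summed to 321 to 373.5 CPM in WT CDDO-Me, against 173.3 to 277.6 CPM in WT DMSO, with 0 of 5 called by edgeR and 2 of 5 at an unadjusted p under 0.05. None of the Kupffer and stellate cell markers was at 0 in any library, and the part of the markers in the values of the 8 genes was not tested in any comparison.

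For CDDO-Me in KO liver, edgeR called 0 of 8 genes, against 0.13% of all genes, with 2 of 8 at an unadjusted p under 0.05 (Nfe2l2 and Mafg, both with estimates below 0), against 15.8%. DESeq2 and limma called 0 as well. Estimates above 0 numbered 6 of 8, against 45.5% of all genes, and the median was 0.20, against −0.04. The groups overlapped for all 8 genes, while 10.5% of all genes did not overlap. The WT and KO responses differed by a called amount in 0 of 8 genes (interaction, edgeR), against 0.13% of all genes, and in 0 of 8 at an unadjusted p under 0.05, against 8.53%. DESeq2 and limma called 0 for the interaction too. The 2 drug comparisons share no library, while each genotype comparison shares a group with each drug comparison.

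Read per gene length, in the deposited FPKM, Sqstm1 was the highest of the 8 in all 16 libraries (62.9 to 168.3 FPKM). The medians over the 16 libraries were 106.0 FPKM for Sqstm1, 20.0 for Nfe2l1, 14.3 for Bach1, 12.9 for Cul3, 12.6 for Mafg, 9.95 for Keap1, 9.78 for Nfe2l2 and 4.05 for Mafk. Sqstm1 did not meet the range of Nfe2l1 (16.1 to 27.6 FPKM), and every other pair of neighbours in this order overlapped. By mean FPKM over the 16 libraries, they stood between the 64.1 percentile (Mafk) and the 97.7 percentile (Sqstm1) of all tested genes. Cul3 ranged from 9.91 to 14.7 FPKM, and Nfe2l2 from 4.04 to 20.9 FPKM.

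**Figure D3:**
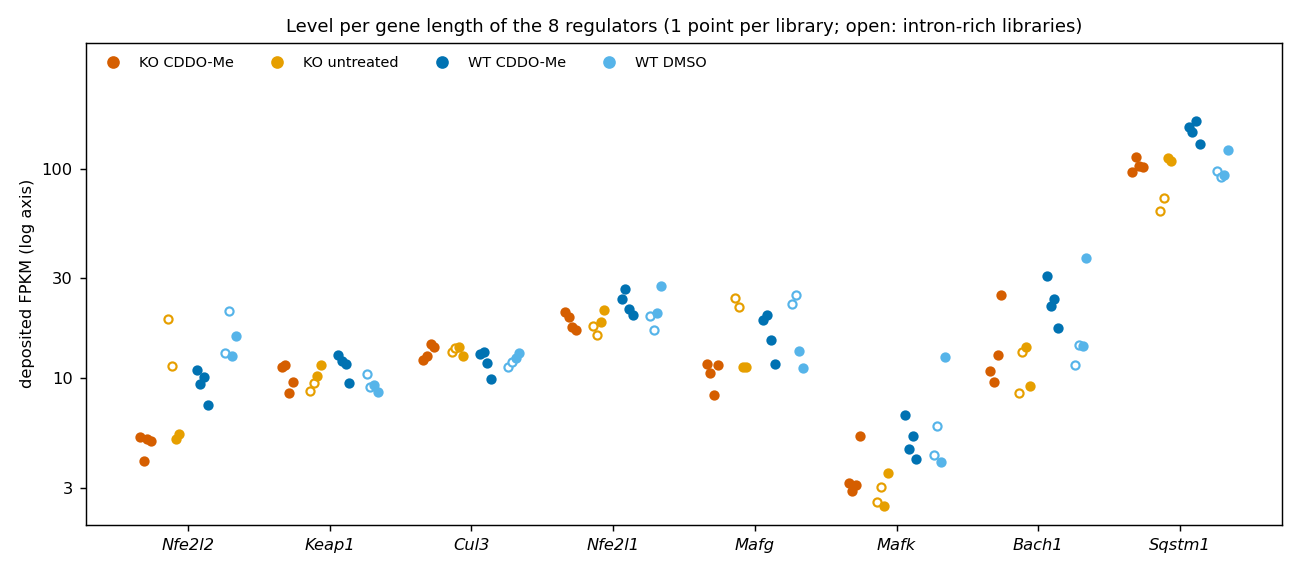
Deposited FPKM of the 8 genes on a log axis, 1 point per library, coloured by group, with open circles for the intron-rich libraries. Sqstm1 lies above all others, at 62.9 to 168.3 FPKM, and Mafk is the lowest by its median of 4.05 FPKM.

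A ratio of 2 genes within a library does not depend on how libraries are scaled. The ratio of Nfe2l2 to Keap1 in FPKM was 0.848, 0.771, 0.867 and 0.784 in WT CDDO-Me, against 1.265, 2.295, 1.371 and 1.858 in WT DMSO. The drug-treated WT libraries were all below the vehicle libraries, at a mean of 0.818 ± 0.0474, against 1.697 ± 0.475 in WT DMSO. In KO the ratio was 0.466, 0.350, 0.602 and 0.523 in KO CDDO-Me, against 2.19, 1.205, 0.501 and 0.469 in KO untreated, and the groups overlapped. The ratio of Bach1, the repressor, to Nfe2l2 was 2.795, 2.356, 2.342 and 2.33 in WT CDDO-Me, against 0.874, 0.689, 1.124 and 2.347 in WT DMSO. The treated libraries met the vehicle group at WT DMSO 4. The ratio of Mafg to Mafk ran from 2.84 to 4.34 in WT CDDO-Me, against 0.880 to 5.25 in WT DMSO, and from 2.17 to 3.68 in KO CDDO-Me, against 3.21 to 9.345 in KO untreated. These ratios were chosen with the levels known and carry no test.

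**Figure D4:**
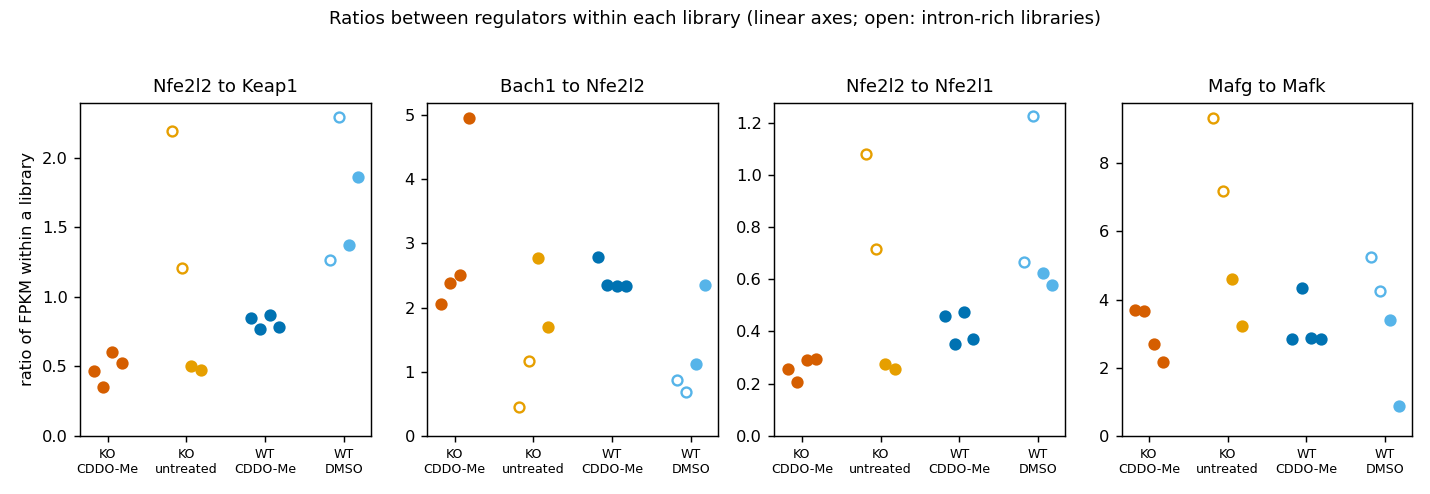
Ratios of deposited FPKM between pairs of the genes within each library (linear axes from 0), with open circles for the intron-rich libraries. Nfe2l2 to Keap1 is 0.771 to 0.867 in WT CDDO-Me, below all WT DMSO libraries, which run from 1.265 to 2.295.

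In the control groups 1 library stood at the end of its group for most of the 8 genes. WT DMSO 4 was the highest of its group for 7 of 8 genes and the lowest for Mafg. KO untreated 1 was the highest of its group for Nfe2l2 and the lowest for 6 of 8 genes. Deviations ran from −0.81 to 1.42 on the log2 scale, the top being WT DMSO 4. Over the 16 libraries, which share these depths and intron shares, log2 CPM of Keap1 and Sqstm1 correlated at r = 0.921, Nfe2l1 and Sqstm1 at 0.892, Mafk and Bach1 at 0.885, Nfe2l2 and Mafg at 0.750, and Nfe2l2 and Keap1 at −0.252.

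**Figure D5:**
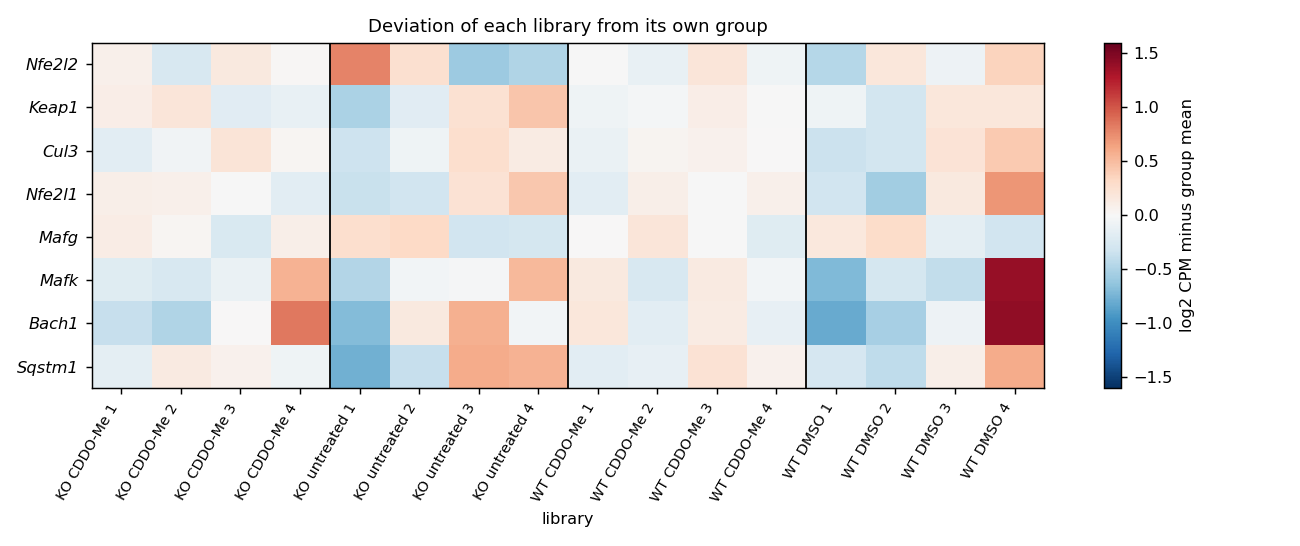
log2 CPM of each gene in each library minus the mean of its own group, red for above and blue for below. WT DMSO 4 is red for 7 of the 8 genes, up to 1.42, and KO untreated 1 is blue for 6.

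By the same correlation over 16 libraries, the protein-coding genes most like each of the 8 were drawn from 13038 genes. They were 4930523C07Rik (0.893), Scaf8 (0.888) and Dll1 (0.885) for Nfe2l2, Cops7a (0.969), Nudc (0.969) and Gaa (0.961) for Keap1, and Nedd4 (0.987), Dars (0.974) and Bmpr2 (0.970) for Cul3. They were Lrp10 (0.961), Krt8 (0.941) and Tm9sf4 (0.940) for Nfe2l1, Ccdc171 (0.904) and Mbd6 (0.900) for Mafg, and Gnl3 (0.940), Xdh (0.936) and Thbd (0.933) for Mafk. For Bach1 they were Yars (0.925), Ibtk (0.920) and Steap4 (0.916), and for Sqstm1 Abcf1 (0.969), Crim1 (0.965) and the proteasome subunit Psmb5 (0.962). These are descriptions of the same libraries.

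On chromosome 2 the 5 nearest tested genes on each side of Nfe2l2 were Mrpl23-ps1, Mtx2, Gm14425, Rps6-ps4 and Hnrnpa3 on one side and Gm13657, Agps, Ttc30b, Ttc30a1 and Rbm45 on the other. None of these 10 was called between KO and WT by edgeR in either genotype comparison, of which Agps had an unadjusted p of 0.0345 (drug-treated) and 0.0484 (controls). Hnrnpa3 and Agps had every KO CDDO-Me library above every WT CDDO-Me library, with log2 fold changes of 0.25 (edgeR adjusted p = 0.293) and 0.31 (edgeR adjusted p = 0.243). Their means were 74.5 CPM in KO CDDO-Me and 62.8 CPM in WT CDDO-Me for Hnrnpa3, and 25.5 CPM in KO CDDO-Me and 20.5 CPM in WT CDDO-Me for Agps.

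A further 38 genes of the pathway, in 6 lists, were all tested. In KO CDDO-Me vs WT CDDO-Me 2 of 38 were called lower, against 2.23% of all genes. In KO untreated vs WT DMSO 1 of 38 was called lower, against 0.969% of all genes, and 0 of 38 were called in either drug comparison or the interaction by edgeR. At an unadjusted p under 0.05 there were 9 of 38 in KO CDDO-Me vs WT CDDO-Me, against 17.1% of all genes, and 10 of 38 in KO untreated vs WT DMSO, against 14.1%. There were 6 of 38 in the WT drug comparison, against 15.3%, 8 of 38 in the KO drug comparison, against 15.8%, and 4 of 38 in the interaction, against 8.53%. The median log2 fold changes were −0.00502 in the WT drug comparison, 0.15 in the KO drug comparison, −0.09 in KO untreated vs WT DMSO and −0.0019 in KO CDDO-Me vs WT CDDO-Me. Bach2, a relative of BACH1, had 6.76, 6.41, 10.1 and 11.8 CPM in KO CDDO-Me, against 19.8, 14.4, 19.7 and 14.1 CPM in WT CDDO-Me. The groups did not overlap. In that pair Bach2 fell by 0.96 on the log2 scale in KO CDDO-Me (SE 0.25, edgeR adjusted p = 0.0440). It kept its call in 6 of the 16 fits that left out 1 library. In the control groups Bach2 overlapped, at 20.0, 15.4, 17.65 and 13.3 CPM in KO untreated, against 16.85, 19.1, 15.9 and 31.7 CPM in WT DMSO. Every KO CDDO-Me library was also below every KO untreated library, a difference that edgeR did not call. The Bach2 call was lost without WT DMSO 2, KO untreated 2 or 3, KO CDDO-Me 1, 2 or 3, or any WT CDDO-Me library (edgeR adjusted p up to 0.149). Limma on log2(FPKM + 0.1) did not call Bach2 (adjusted p = 0.121), nor did edgeR with no filter on low counts (adjusted p = 0.0608).

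Maff, the third small MAF gene, had 0.762, 1.496, 2.78 and 3.03 CPM in KO untreated, against 5.53, 7.91, 7.16 and 25.3 CPM in WT DMSO. All KO untreated libraries were below all WT DMSO libraries, and Maff fell in KO untreated, at −2.51 ± 0.56 on the log2 scale (edgeR adjusted p = 0.0372). WT DMSO 4 was again the highest vehicle library, and without it the value was −1.75 (edgeR adjusted p = 0.0930). The Maff call was also lost without KO CDDO-Me 3 or any 1 library of KO untreated or WT CDDO-Me (−2.77 to −2.24, edgeR adjusted p up to 0.116). It was lost as well with only these 2 groups fitted (−2.53, edgeR adjusted p = 0.178), without the 4 intron-rich libraries (−2.52, edgeR adjusted p = 0.102) and by limma on log2(FPKM + 1) with no filter (−1.49, adjusted p = 0.0901). It held with the replicate block (edgeR adjusted p = 0.0114) and with DESeq2 (adjusted p = 0.000276). Maff had 1.74, 2.82, 5.83 and 9.32 CPM in KO CDDO-Me, against 7.65, 6.18, 6.24 and 6.06 CPM in WT CDDO-Me, where the groups overlapped (−0.41 ± 0.53, edgeR adjusted p = 0.778). Of the other CNC relatives, Nfe2l3 had 0.305 to 1.41 CPM in KO untreated, against 0 to 0.184 CPM in WT DMSO, with a log2 fold change of 2.57 ± 0.72 in KO untreated vs WT DMSO (edgeR adjusted p = 0.0932). Nfe2, the factor of the erythroid lineage, had a log2 fold change of 1.43 ± 0.53 in KO CDDO-Me vs WT CDDO-Me (edgeR adjusted p = 0.165).

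The genes named next, from the other 5 lists, missed the threshold, and their values are log2 fold changes ± SE. Among the 6 genes of the KEAP1 and CUL3 ligase, Rbx1, its RING subunit, had 0.50 ± 0.22 in KO CDDO-Me vs KO untreated (edgeR adjusted p = 0.296) and 0.42 ± 0.22 in KO CDDO-Me vs WT CDDO-Me (0.354). Nedd8, which activates cullins, had 0.44 ± 0.26 in WT CDDO-Me vs WT DMSO (edgeR adjusted p = 0.405). Among the 7 genes of other NRF2 degradation, Btrc, the beta-TrCP receptor, had 0.45 ± 0.15 in KO untreated vs WT DMSO (edgeR adjusted p = 0.151). Its paralogue Fbxw11 had 0.44 ± 0.23 in KO CDDO-Me vs KO untreated (edgeR adjusted p = 0.347), and Skp1a, an adaptor of that ligase, 0.39 ± 0.28 in WT CDDO-Me vs WT DMSO (0.488). Of the coactivators, Crebbp had −0.25 ± 0.11 in KO untreated vs WT DMSO (edgeR adjusted p = 0.311) and Chd6 −0.26 ± 0.22 in WT CDDO-Me vs WT DMSO (0.541). Of 12 genes for binding partners and the p62 route, Trim21, a ligase for p62, had −1.45 ± 0.54 in WT CDDO-Me vs WT DMSO (edgeR adjusted p = 0.234). Cdkn1a had −1.92 ± 0.68 in KO untreated vs WT DMSO (edgeR adjusted p = 0.186), and Sesn2, a sestrin, −1.00 ± 0.33 in KO CDDO-Me vs WT CDDO-Me (0.119). Among the 4 genes that process NRF1, the retrotranslocation factor Sel1l had 0.42 ± 0.21 in WT CDDO-Me vs WT DMSO (edgeR adjusted p = 0.337), the protease gene Ddi2 −0.44 ± 0.16 in KO untreated vs WT DMSO (0.196) and Vcp −0.28 ± 0.26 in KO CDDO-Me vs WT CDDO-Me (0.650).

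The 6 output genes of NRF2 were read beside their regulators. Nqo1, Gclc, Txnrd1 and Srxn1, 4 of 6, were called higher in WT CDDO-Me than in WT DMSO, where 0.728% of all genes were called in either direction. The 0 of 8 regulators called there is near that share. Gclc, the catalytic subunit of glutathione synthesis, had 925 to 1355 CPM in WT CDDO-Me, against 218 to 288 CPM in WT DMSO (log2 fold change 2.13 ± 0.20, edgeR adjusted p = 3.24e-05). The same 4 were called in KO CDDO-Me vs WT CDDO-Me, all lower in KO, against 2.23% of all genes. Nqo1 was called lower in KO untreated than in WT DMSO (−2.31 ± 0.32, edgeR adjusted p = 0.00206), against 0.969% of all genes. In KO CDDO-Me vs KO untreated 0 of 6 were called by edgeR, against 0.13% of all genes, and 4 of 6 had an unadjusted p under 0.05, against 15.8%. The log2 estimates there lay between 0.07 for Gclc and 1.21 for Hmox1. The interaction was called for Nqo1, Gclc and Srxn1, with the WT response the larger, against 0.13% of all genes. Gclm had 1.06 ± 0.27 (edgeR adjusted p = 0.0959) and Hmox1 0.52 ± 0.63 (0.677) in WT CDDO-Me vs WT DMSO, and Hmox1 was at 294 CPM in WT DMSO 4, against 20.5 to 47.2 CPM in the other vehicle libraries.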

How the data were processed

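Whole-number gene counts and FPKM for 16 mouse liver libraries were deposited by the authors. Per the labels' protocols, ribosomal RNA was depleted from 1 µg total RNA, and directional libraries were read as 150-base pairs. The genome build was GRCm38.p5, per the submitters' processing notes, which also list HTSeq (0.6.1p1), TopHat2 (2.1.0), DESeq2, cutadapt (1.2.1) and CASAVA (1.8.2) without their roles. Whether counting used strand is not given in the sources used here. In every library the deposited FPKM equalled count per gene length and library total (largest relative deviation 8.7e-07). GENCODE M21 (GRCm38) named and placed the genes and matched 33586 identifiers (144 did not match).

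Counts were tested with edgeR 4.0.16 in R 4.3.3 (TMM, filterByExpr, quasi-likelihood, 16 libraries in 1 fit, 12 residual degrees of freedom), adjusted over 16206 genes by Benjamini-Hochberg. DESeq2 1.42.0, limma 3.58.1 on log2(FPKM + 1) and log2(FPKM + 0.1), other filters, scalings and left-out libraries were alternatives. No pair of libraries was a duplicate (lowest chi-square per degree of freedom 16.7). On simulated counts for WT CDDO-Me vs WT DMSO, with 100 genes changed 2-fold and 100 changed 4-fold, edgeR tested 15971 genes, called 48 and 99 of these and made 6 false calls. Deviations from the group mean of same-numbered libraries correlated at 0.371 to 0.483 in all 4 pairs of KO untreated and WT DMSO. These numbers end the sample titles, whereas the column headers give each library a running number of its own. No label states a pairing, and libraries 1 and 2 of both groups are the intron-rich ones. A pairing and this shared trait cannot be told apart, so the replicate block is given only as an alternative. In the other comparisons at most 2 of 4 pairs were above 0.1. WT DMSO 4 and WT CDDO-Me 1 carry the highest running numbers in the column headers, and an alternative left them out together. No label ties a library to a named animal, and p-values measure the spread between samples. The 8 genes and the lists were chosen with earlier results of these data known. Named pathway genes are those called, plus the largest estimate of each list in each pairwise comparison, and the 3 genes most like each of the 8 are named. A pathway gene and a gene like Mafg that these rules name are not reported here. Each of the 8 genes is given in every library. For likeness, log2 CPM had a prior count of 2.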

Additional observations from a re-analysis of the deposited data

Results flagged for a closer look

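Of 32 sets of 4 libraries (8 genes in 4 groups), 2 held a library far from the other 3 by Dixon's 95% criterion, and chance gives about 1 in 20. Both concern Mafk. WT DMSO 4 had 61.3 CPM of Mafk, against 14.3 to 19.2 CPM in WT DMSO 1 to 3, and KO CDDO-Me 4 had 20.6 CPM, against 11.7 to 13.1 CPM in the other KO CDDO-Me libraries. WT DMSO 4 also had the highest Bach1 of all libraries (286 CPM), and KO CDDO-Me 4 the highest Bach1 of its group (153 CPM).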

How the results depend on the processing

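The 2 calls in KO CDDO-Me vs WT CDDO-Me, Nfe2l2 and Mafg, held under DESeq2, other size factors and the replicate block. Of the 8 genes, the number called there was 1 with no filter on low counts and 0 by each limma fit on FPKM. It was 3 without the 4 intron-rich libraries and 4 with only the 2 groups compared. Between KO untreated and WT DMSO it was 2 by DESeq2, and 1 with no filter, with the replicate block and without the 4 intron-rich libraries. Leaving out 1 library at a time gave 0 to 2 called in KO CDDO-Me vs WT CDDO-Me, 0 to 1 in KO untreated vs WT DMSO and 0 to 0 in the drug comparisons and the interaction. The numbers of all genes called were 118 (WT CDDO-Me vs WT DMSO), 21 (KO CDDO-Me vs KO untreated), 223 (KO untreated vs WT DMSO), 534 (KO CDDO-Me vs WT CDDO-Me), then 21 (interaction). In the same order, DESeq2 gave 450, 292, 607, 1044 and 173, and leaving out 1 library gave 54 to 219, 4 to 133, 104 to 271, 265 to 820 and 18 to 48. No filter gave 51 in the KO drug comparison and 38 for the interaction. Limma on log2(FPKM + 1) gave 67 in the KO drug comparison, 959 in KO CDDO-Me vs WT CDDO-Me, then 57 for the interaction, and on log2(FPKM + 0.1) 55, 970 and 54. Limma with no filter on low values gave 122 in KO untreated vs WT DMSO and 42 for the interaction. With only the 2 groups compared there were 72 (WT drug), 20 (KO untreated vs WT DMSO) and 2045 (KO CDDO-Me vs WT CDDO-Me). The interaction could not be fitted there. Without the intron-rich libraries there were 4 (KO drug), 86, 1482 (the genotype comparisons) and 67 (interaction), and without WT DMSO 4 and WT CDDO-Me 1 there were 88 in the KO drug comparison.

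Over the 24 pairs of same-numbered libraries 7 of 16 libraries correlated best with their own number. In the 3 pairwise comparisons other than KO untreated vs WT DMSO, same-numbered libraries showed no steady likeness (correlations from −0.454 to 0.346). With the replicate block 226 (WT drug), 46 (KO drug), 811 (KO CDDO-Me vs WT CDDO-Me), then 42 (interaction) genes were called, and 1 of the 8 genes, Mafk, in KO untreated vs WT DMSO (−1.31, edgeR adjusted p = 0.0317). The block on only KO untreated and WT DMSO, added after the correlations of these 2 groups were seen, gave 73 called genes there and 0 of the 8. The block changed no other call of the 8 genes. From edgeR to limma on log2(FPKM + 0.1), the median of all genes moved by −0.115, −0.171, 0.17 and 0.123 in the 4 pairwise comparisons in the order above. With limma on log2(FPKM + 1) it moved by −0.0633, −0.0839, 0.103 and 0.0684. Scaling to library totals, the added constant and the method changed together, and their parts were not tested. The split of calls in KO CDDO-Me vs WT CDDO-Me was 172 higher and 362 lower by edgeR, and 635 higher and 324 lower by limma on log2(FPKM + 1). In KO untreated vs WT DMSO it was 66 higher and 157 lower by edgeR, and 168 higher and 83 lower by limma.

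None of the estimates that changed sign was called in either setting. By limma on log2(FPKM + 1), with or without a filter, Cul3 was −0.0319 and Mafg −0.0824 in the WT drug comparison, Cul3 −0.0139 in the KO drug comparison, Keap1 0.0866 and Cul3 0.139 in KO untreated vs WT DMSO, and Bach1 0.112 in the interaction. On log2(FPKM + 0.1) they were −0.0348, −0.0845, −0.0150, 0.0943, 0.148 and 0.118. The Nfe2l1 interaction was −0.0236 by DESeq2 and −0.0182 with the other size factors, and the Bach1 interaction 0.12 with the replicate block. Without the intron-rich libraries Cul3 was −0.23, Nfe2l1 −0.20 and Bach1 −0.31 in the WT drug comparison, Keap1 −0.0826, Nfe2l1 −0.0759 and Sqstm1 −0.0779 in the KO drug comparison, Keap1 0.0555 in KO untreated vs WT DMSO, and Nfe2l2 −0.63 and Nfe2l1 −0.12 in the interaction. Without WT DMSO 4 and WT CDDO-Me 1, Mafg was −0.0307 and Mafk 0.34 in the WT drug comparison, Keap1 0.0121 and Cul3 0.105 in KO untreated vs WT DMSO, and Cul3 0.0929 and Bach1 0.42 in the interaction. Leaving out 1 library at a time spanned 0 for Cul3 (−0.0247 to 0.241), Mafg (−0.0324 to 0.158) and Mafk (−0.56 to 0.39) in the WT drug comparison, Keap1 (−0.21 to 0.0937) and Cul3 (−0.15 to 0.11) in KO untreated vs WT DMSO, and Cul3 (−0.0245 to 0.107) in KO CDDO-Me vs WT CDDO-Me. It did so for Nfe2l2 (−0.14 to 0.35), Cul3 (−0.21 to 0.0579), Nfe2l1 (−0.16 to 0.30) and Bach1 (−0.49 to 0.49) in the interaction. The cause of these changes was not tested. The runs for Maff and Bach2 were added after their calls were seen.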
